A study of Mus musculus with 15 samples.

Results

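The Nlrp4, Nlrp9 and Nlrp14 genes of the mouse are oocyte-expressed genes of the NLRP family, and their transcripts were followed here from the zygote to the 2-cell embryo. Members were all genes of the expression table whose symbol starts with Nlrp4 or Nlrp9 or equals Nlrp14. This rule found 9 of the 14392 genes in the table, namely Nlrp4a, Nlrp4b, Nlrp4c, Nlrp4e, Nlrp4f, Nlrp9a, Nlrp9b, Nlrp9c and Nlrp14. None of the 72 values of these genes lay at the lowest value the table allows, so every member had a value above that floor in every library.

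RNA-seq libraries were made by Smart-seq2, which primes on poly(A) tails, from pools of 10 embryos, with 2 libraries in each of 4 groups. WT zygotes and WT 2-cell embryos came from Usp16+/+ females, and cKO zygotes and cKO 2-cell embryos came from Usp16 fl/fl;Gdf9-Cre females. All females were of C57BL/6 background, juvenile and superovulated, and were mated with WT males, so the cKO embryos lacked the maternal copy (labelled Usp16 maternal -/ paternal +) and could still transcribe the paternal one. Gdf9-Cre acts in the oocyte from early follicle growth, so the deletion preceded the stages sampled, and USP16 is a deubiquitinase of histone H2A. The labels do not say whether the 2 libraries of a group came from separate mothers, so p-values measure only the spread between these libraries.

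NLRP proteins carry a nucleotide-binding NACHT domain and leucine-rich repeats, and several others of the family assemble inflammasomes in immune cells. The genes described here are instead best known from oocytes, where they are transcribed during growth and their mRNAs are stored. Such maternal transcripts are cleared as the embryo takes over from the oocyte, around the 2-cell stage in mice, when the zygotic genome becomes active. NLRP5 (MATER), a related oocyte protein, is a core of the subcortical maternal complex, and embryos of females without it arrest at the 2-cell stage.

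In mm9 with the GENCODE M1 annotation, 8 of the members lay on chromosome 7 and Nlrp4f lay on chromosome 13 from 65278419 to 65307276 on the minus strand. Nlrp9c (27107492 to 27188719, minus strand), Nlrp4a (27220132 to 27261161, plus strand) and Nlrp9a (27320042 to 27360634, plus strand) were consecutive members, with gaps of 31412 and 58880 bases. Genes outside the Nlrp family were not looked for in any gap. Nlrp4c (5996763 to 6056751), Nlrp4b (11273142 to 11315517), Nlrp9b (20593372 to 20658655) and Nlrp4e (24086294 to 24147289) were spread before this cluster on the plus strand. Nlrp5 lay 23618 bases from Nlrp4e. Nlrp14 (114310504 to 114341616, plus strand) stood 86949869 bases beyond Nlrp9a. All 9 are annotated as protein-coding, with 9 to 11 exons in the transcript of longest coding sequence and 2592 to 3015 coding bases.

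The coding sequences fell into the groups of the gene names. Identity among the 5 Nlrp4 genes was 77.1 to 93.9% of aligned bases (median 82.0% over 10 pairs), and among the 3 Nlrp9 genes it was 82.8 to 87.7%. Between an Nlrp4 and an Nlrp9 gene it was 58.1 to 62.7%, and Nlrp14 had 60.0 to 63.0% identity with the other 8. The most alike pair was Nlrp4c and Nlrp4e, and the next was Nlrp9a and Nlrp9c.

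**Figure D1:**
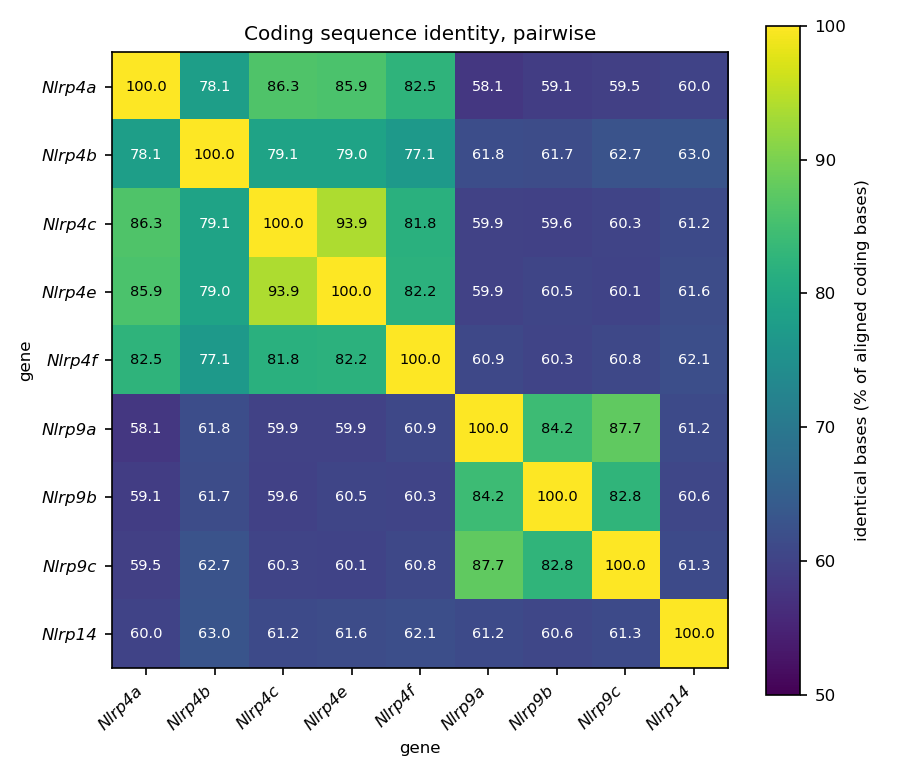
Pairwise identity of the coding sequences of the 9 genes, as the percent of aligned coding bases that are identical, written in each cell and shown by colour. Cells between 2 Nlrp4 genes or between 2 Nlrp9 genes show 77.1 to 93.9%, and every cell between blocks and every cell of Nlrp14 with another gene is at or below 63.0%.

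Reads were trimmed to 50 bases before mapping, so exact repeats of that length matter for telling these genes apart. Of all distinct stretches of 50 bases in the annotated transcripts of a gene, 10.4% in Nlrp4e, 9.30% in Nlrp4c, 6.07% in Nlrp9a, 5.77% in Nlrp9b, 4.70% in Nlrp9c, 1.75% in Nlrp4a and 0.0791% in Nlrp4f also occurred in another gene. None did in Nlrp4b or Nlrp14. Only protein-coding transcripts were searched, so copies in pseudogenes or elsewhere in the genome were not counted. The levels of Nlrp4c and Nlrp4e and of the Nlrp9 genes are therefore less certain than those of Nlrp4b and Nlrp14, since the counting could divide shared reads between copies. In WT zygotes the FPKM of Nlrp4c was only 0.0859 to 0.0962 of that of Nlrp4e. How much of the Nlrp4c value came from shared reads was not tested. The longest exact coding run of each group is printed below from GENCODE M1 on mm9, because a read inside it cannot be placed, and it stays in lower case since every base is shared. It spans 120 bases in Nlrp4c and Nlrp4e (coding bases 121 to 240 of both) and 129 bases in Nlrp9a and Nlrp9b (coding bases 589 to 717 of both).
Nlrp4c and Nlrp4e: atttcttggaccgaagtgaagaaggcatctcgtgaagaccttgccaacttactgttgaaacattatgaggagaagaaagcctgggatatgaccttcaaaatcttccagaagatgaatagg
Nlrp9a and Nlrp9b: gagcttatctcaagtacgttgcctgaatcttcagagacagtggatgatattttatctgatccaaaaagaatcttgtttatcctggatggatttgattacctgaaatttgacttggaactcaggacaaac

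The 250 bases before the transcription start were available from RefSeq (GRCm38.p6) for 8 of the members. No such window was given for Nlrp14. The Nlrp9 windows are printed because the members of this group did not fall alike, as described below. Capitals mark the longest exact run shared by the windows of Nlrp9a and Nlrp9c, 106 bases long, which is 42.4% of the window.
Nlrp9a (chr7:26534773-26535022, plus strand): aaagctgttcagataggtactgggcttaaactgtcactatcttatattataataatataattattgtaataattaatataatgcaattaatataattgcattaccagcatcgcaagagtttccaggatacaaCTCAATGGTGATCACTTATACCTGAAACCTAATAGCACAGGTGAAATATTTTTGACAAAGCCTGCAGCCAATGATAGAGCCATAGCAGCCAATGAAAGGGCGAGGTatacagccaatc
Nlrp9c (chr7:26403701-26403950, minus strand): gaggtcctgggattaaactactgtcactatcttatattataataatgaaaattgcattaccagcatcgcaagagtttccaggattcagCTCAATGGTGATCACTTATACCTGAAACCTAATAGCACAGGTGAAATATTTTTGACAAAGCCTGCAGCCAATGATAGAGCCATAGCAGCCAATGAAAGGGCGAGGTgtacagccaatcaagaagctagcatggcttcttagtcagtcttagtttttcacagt
Nlrp9b (chr7:20007773-20008022, plus strand): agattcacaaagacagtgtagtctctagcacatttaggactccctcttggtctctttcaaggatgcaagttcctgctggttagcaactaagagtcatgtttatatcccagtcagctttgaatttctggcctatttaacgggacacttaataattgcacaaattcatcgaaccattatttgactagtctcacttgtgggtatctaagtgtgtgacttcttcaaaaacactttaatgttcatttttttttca
Nlrp9a and Nlrp9c aligned over 174 bases with 164 identical (94.3%). The window of Nlrp9b shared no exact run longer than 9 bases with Nlrp9a and none longer than 7 with Nlrp9c.

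Among the Nlrp4 genes, Nlrp4a (the second of its 2 RefSeq starts), Nlrp4b (the first of its 2) and Nlrp4c had alignable windows. Identity was 76.1% for Nlrp4c with Nlrp4a over 213 aligned bases and 79.3% for Nlrp4b with Nlrp4a over 222. The other Nlrp4b window aligned with that of Nlrp4a as well, at 79.9% over 204 bases. The 3 windows below are shown because they come from genes of very different level. Capitals mark exact runs of at least 10 bases shared with another of the 3.
Nlrp4a (chr7:26435364-26435613, plus strand): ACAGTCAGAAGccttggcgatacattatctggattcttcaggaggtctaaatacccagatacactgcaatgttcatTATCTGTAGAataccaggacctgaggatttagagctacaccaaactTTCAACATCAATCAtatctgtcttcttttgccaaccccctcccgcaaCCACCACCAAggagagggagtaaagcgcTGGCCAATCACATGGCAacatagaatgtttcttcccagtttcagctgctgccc
Nlrp4b (chr7:10687543-10687792, plus strand): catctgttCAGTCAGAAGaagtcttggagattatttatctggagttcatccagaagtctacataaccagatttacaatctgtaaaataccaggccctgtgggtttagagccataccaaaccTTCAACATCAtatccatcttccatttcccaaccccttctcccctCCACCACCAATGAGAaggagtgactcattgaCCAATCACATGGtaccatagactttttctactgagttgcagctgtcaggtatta
Nlrp4c (chr7:6044911-6045160, plus strand): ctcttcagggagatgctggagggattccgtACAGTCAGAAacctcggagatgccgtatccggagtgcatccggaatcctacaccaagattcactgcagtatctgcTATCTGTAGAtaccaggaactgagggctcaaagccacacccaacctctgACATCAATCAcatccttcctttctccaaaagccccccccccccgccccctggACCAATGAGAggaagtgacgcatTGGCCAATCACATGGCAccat
Searched on both strands over every start of a gene, the letters CCAAT were in windows of 6 of the 8 members and of 37.5% of 27025 mouse genes. The E-box letters CANNTG were in 7 of 8 members and 69.3% of all genes. The TATA box, searched as TATAAA, was found for Nlrp9b alone and in 14.3% of all genes. A homeobox core, searched as TAATTA, was found for Nlrp9a alone and in 5.65%. These are matches of letters, and nothing was measured on binding here.

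Usp16 served as the check of the labels. Its FPKM, a level normalised to transcript length and to mapped fragments, was 184 and 187 in the WT zygote libraries, 16.8 and 22.0 in the cKO zygote libraries, 168 and 183 in the WT 2-cell libraries and 168 and 84.8 in the cKO 2-cell libraries. It was thus low in both cKO zygote libraries, while at the 2-cell stage cKO replicate 1 lay next to the lower WT library and replicate 2 well below both. FPKM tables carry no read counts, so neither the depth of the libraries nor a counting error is known. The summed FPKM over all genes was between 547752 and 593317 in 7 libraries and 770989 in cKO 2-cell replicate 2. Values under 1 had been set to 1 by the authors. All 7 oocyte markers of a fixed list were detected in each group, with sums of 2841 to 3461 FPKM in zygotes, 997 to 1101 in WT 2-cell and 529 to 672 in cKO 2-cell embryos. Markers of the 2-cell embryo, with 8 of 10 in the table, summed to 9.45 to 13.5 FPKM in zygotes, 601 to 859 in WT 2-cell and 300 to 380 in cKO 2-cell embryos. Markers of cumulus or granulosa cells (4 of 10 in the table) summed to at most 43.0 FPKM, of sperm (4 of 6) to at most 23.1 and of blood or macrophages (3 of 6) to at most 18.5 in any library.

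In WT zygotes the members spanned a wide range of levels. Nlrp4f, the most abundant, had 1084 and 1226 FPKM and exceeded 99.5% of all genes. Its protein has been placed with the subcortical maternal complex. Nlrp4a had 512 and 668 FPKM, Nlrp14, which is known from both male and female germ cells, had 440 and 392, and Nlrp9c had 347 and 297. Nlrp4b followed with 266 and 301 FPKM and overlapped Nlrp9c. Nlrp9a, with 184 and 176 FPKM, stood just above Nlrp9b, with 171 in both libraries. Nlrp9b is also known from the gut, where it senses viral RNA in epithelial cells. Nlrp4e had 152 and 174 FPKM and overlapped Nlrp9b. Nlrp4c was far below the others, with 14.6 and 15.0 FPKM, and still exceeded 72.5% of genes, although its coding sequence is the closest to that of Nlrp4e. In cKO zygotes the leading 5 genes and the lowest were in the same order, and Nlrp4a (464 and 588) then overlapped Nlrp14 (505 and 430).

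**Figure D2:**
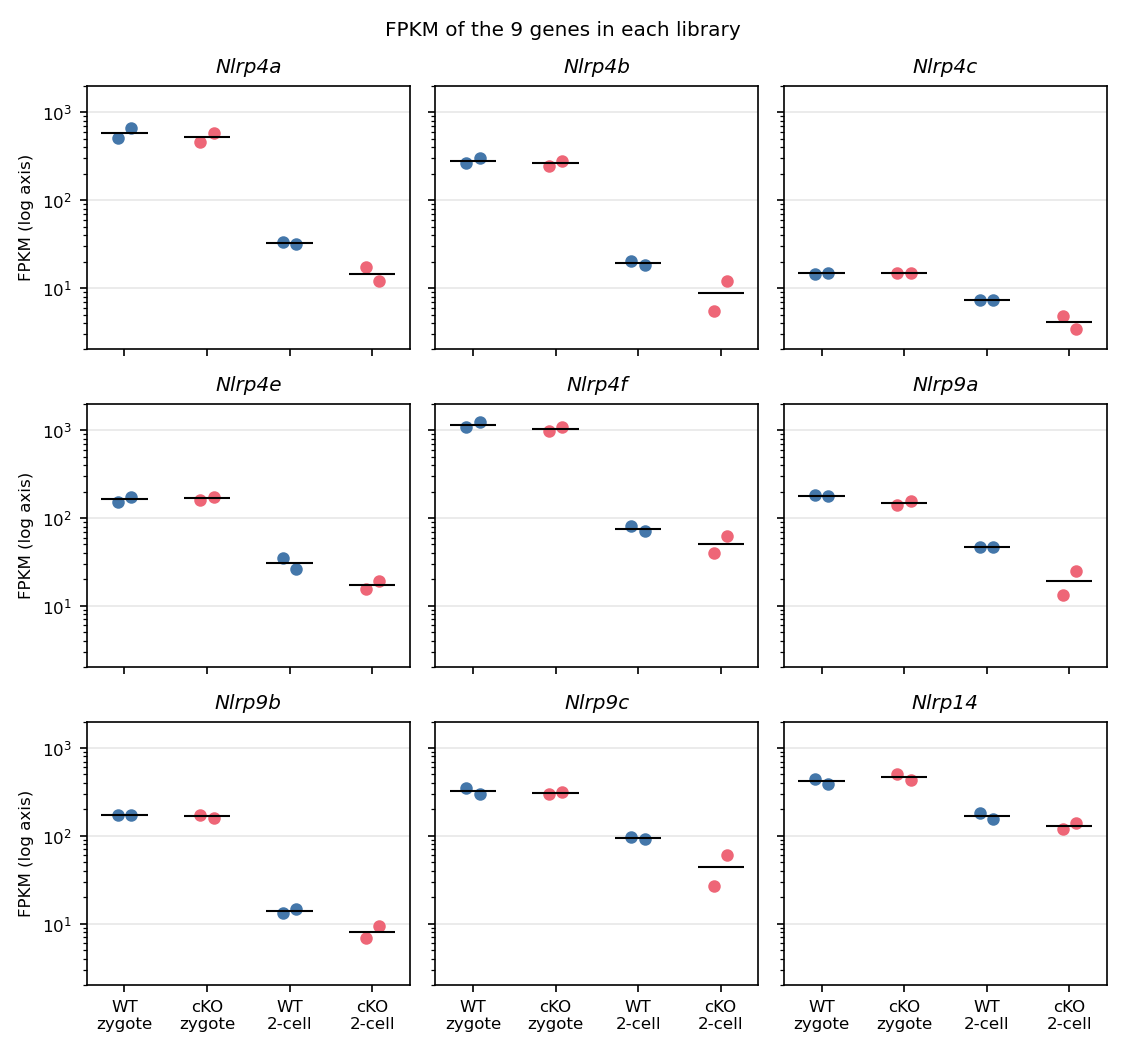
FPKM on a log axis of each of the 9 genes in each library, with 1 point per library (blue, WT; red, cKO) and a line at the mean of the 2 libraries of a group. Every 2-cell library lies below every zygote library in all 9 panels, and both cKO 2-cell libraries lie below both WT 2-cell libraries in all 9, in the values as deposited.

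Between the WT zygote and the WT 2-cell embryo, the question was how far these maternal transcripts were cleared. Both WT 2-cell libraries lay below both WT zygote libraries for 9 of 9 members, compared with 26.4% of all genes. limma on log2(FPKM + 1), with Benjamini-Hochberg adjustment over all genes, called 9 of 9 lower, against 15.5% of all genes, with adjusted p between 0.000108 and 0.0132. By the fold of the means, 7 of 9 were more than 3-fold lower, against 8.78% of all genes. The log2 differences ran from -4.12 to -0.94 with a median of -2.38, while the median over all genes was 0.27. Among the limits, Nlrp4c or Nlrp9c lost its call (adjusted p 0.0592 to 0.0719) without WT zygote replicate 1, WT zygote replicate 2 or a WT 2-cell replicate.

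The Nlrp4 genes covered the whole span of these falls. Nlrp4a dropped to 33.3 and 32.0 FPKM, 18.1-fold below its zygote mean, which left 5.53%. Nlrp4f dropped to 80.4 and 71.0 FPKM, 15.3-fold lower. Nlrp4b dropped to 20.2 and 18.5 FPKM, 14.6-fold lower. These 3 are the genes of this group with the fewest stretches shared with other genes. Nlrp4e dropped to 35.0 and 26.6 FPKM, 5.30-fold lower. Nlrp4c, at 7.25 and 7.24 FPKM, dropped 2.04-fold, which left 49.0%. Within the most alike coding pair, the FPKM of Nlrp4c as a ratio to Nlrp4e was 0.0859 to 0.0962 in the WT zygote libraries and 0.207 and 0.272 in the WT 2-cell libraries, so the pair fell unequally within libraries.

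The Nlrp9 genes split in the same transition. Nlrp9b dropped to 13.2 and 14.8 FPKM, 12.2-fold below its zygote mean (log2 difference -3.52, SE 0.20, limma adjusted p = 0.000108). Nlrp9a dropped to 46.4 and 47.1 FPKM, 3.86-fold lower, and Nlrp9c to 97.0 and 91.1 FPKM, 3.42-fold lower. A ratio of 2 genes within a library does not depend on how libraries are scaled. The ratio of Nlrp9b to Nlrp9a was 0.927 and 0.970 in WT zygotes, 1.21 and 1.03 in cKO zygotes, 0.285 and 0.315 in WT 2-cell and 0.520 and 0.375 in cKO 2-cell embryos. All 4 zygote libraries thus lay above all 4 2-cell libraries. The ratio of Nlrp9a to Nlrp9c stayed between 0.408 and 0.594 over the 8 libraries, with overlapping zygote and 2-cell values. These gene pairs were compared after their values had been seen, so no test is given. The pair with similar ratios is the pair with the shared run in the printed upstream windows. The printed Nlrp4 windows could be aligned too, while Nlrp4a fell 18.1-fold, Nlrp4b 14.6-fold and Nlrp4c 2.04-fold. Nothing tested here links the sequence to the levels.

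**Figure D3:**
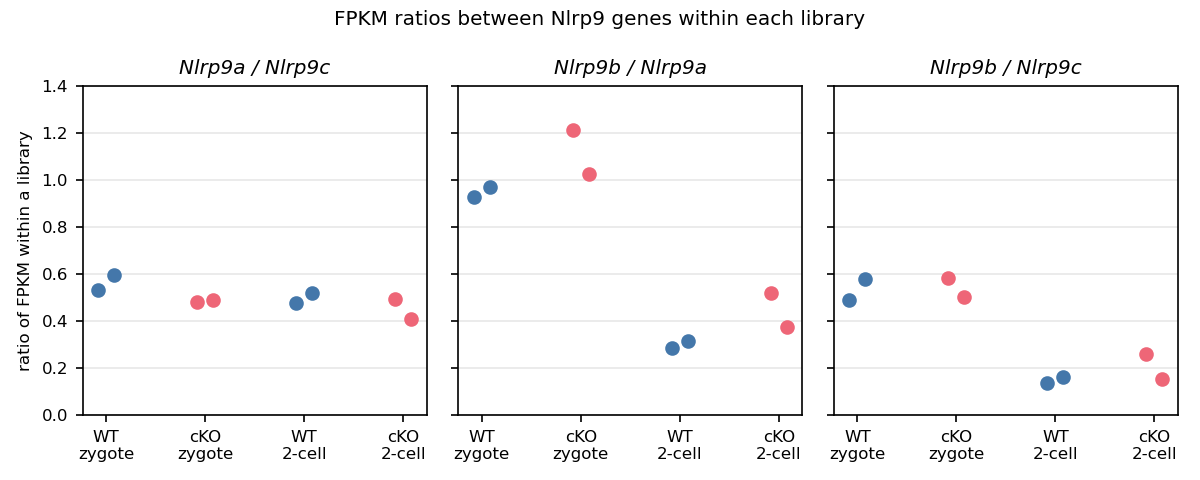
Ratio of FPKM between 2 Nlrp9 genes within each library (1 point per library; blue, WT; red, cKO), on a linear axis that starts at 0. Nlrp9a to Nlrp9c stays between 0.408 and 0.594, while Nlrp9b to Nlrp9a falls from 0.927 to 1.21 in zygotes to 0.285 to 0.520 at the 2-cell stage.

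Nlrp14 fell least among the abundant members. It had 183 and 154 FPKM in WT 2-cell embryos, 2.47-fold below its zygote mean (log2 difference -1.30, SE 0.21, limma adjusted p = 0.00297), which left 40.5%. It ranked as the third by level in zygotes and first at the 2-cell stage in both genotypes, with separate libraries from the gene after it. In WT 2-cell embryos Nlrp9c came next, followed by Nlrp4f and Nlrp9a, and only Nlrp4a and Nlrp4e overlapped among neighbours in that order.

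The sum over the 9 genes was 3295 ± 176 FPKM in WT zygotes and 489 ± 38.1 FPKM in WT 2-cell embryos (SD, n = 2 libraries each), so that 14.8% remained. Its make-up changed as well. Nlrp14 made up 13.9 and 11.4% of the sum in the WT zygote libraries and 35.5 and 33.2% in the WT 2-cell libraries. Nlrp4f made up 34.2 and 35.9% of the sum before and 15.6 and 15.4% after, and Nlrp4a 16.1 and 19.5% before and 6.45 and 6.94% after. These shares are independent of library scaling, and zygote and 2-cell libraries did not overlap for any of these 3 genes.

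**Figure D4:**
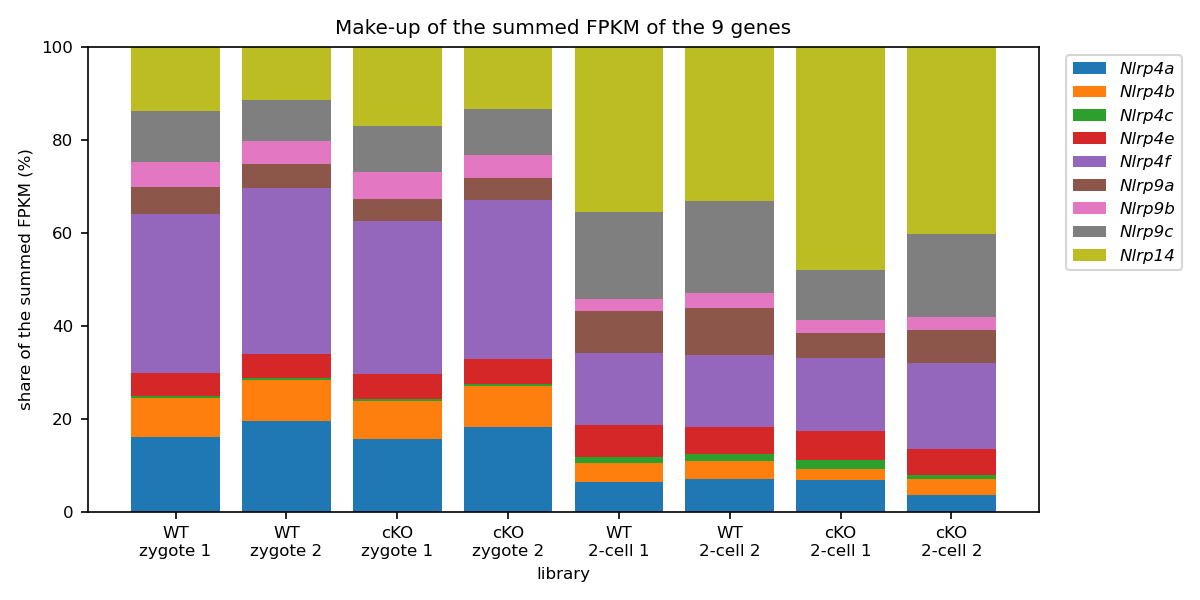
Share of each gene in the summed FPKM of the 9 genes, in percent, for each library. Nlrp14 takes 11.4 to 17.0% in the zygote libraries, 33.2 to 35.5% in the WT 2-cell and 40.3 to 47.9% in the cKO 2-cell libraries, and Nlrp4f goes from 32.8 to 35.9% in zygotes to 15.4 to 18.4% at the 2-cell stage.

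The fall was also seen in cKO embryos. Both cKO 2-cell libraries lay below both cKO zygote libraries for 9 of 9 members, against 35.5% of all genes. Likewise 9 of 9 were called lower by limma, against 27.1%, and 9 of 9 were more than 3-fold lower, against 19.2%. Folds ran from 3.61 for Nlrp4c to 36.1 for Nlrp4a, with 30.2 for Nlrp4b, 20.5 for Nlrp9b, 20.3 for Nlrp4f, 9.65 for Nlrp4e, 7.83 for Nlrp9a, 7.02 for Nlrp9c and 3.63 for Nlrp14. The sum went from 3100 ± 169 to 296 ± 66.1 FPKM (SD, n = 2 each), which left 9.54%.

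In zygotes, the comparison of cKO with WT asks whether loss of Usp16 in the oocyte altered the stored transcripts. No member passed any threshold. Ratios of cKO to WT means ran from 0.828 for Nlrp9a to 1.12 for Nlrp14. limma called 0 of 9 members (adjusted p = 1 for each, and 0 at an unadjusted p under 0.05), against 0% of all genes lower and 0.0208% higher. The fold rule called 0 of 9, against 0.0486% of all genes lower and 0.104% higher. For 7 members the libraries of the genotypes overlapped. Nlrp9a was the only member with both cKO libraries (143 and 156 FPKM) below both WT libraries, an order that 10.2% of all genes showed. Nlrp4c had both cKO values (15.0 in each) above both WT values, as 15.8% of genes did, at a ratio of 1.01. Usp16 itself had a log2 difference of -3.21 (SE 0.34) with a limma adjusted p of 0.191, so this design calls few genes at this stage, and a member's missing call does not show equal levels.

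In 2-cell embryos, with the values as deposited, 9 of 9 members had lower values in both cKO libraries than in either WT library, an order that 43.4% of all genes shared. The ratios of cKO to WT means ran from 0.408 to 0.765 with a median of 0.566, where the median over all genes was 0.771. None was more than 3-fold lower, against 13.5% of all genes. limma called 5 of 9 lower (Nlrp4a, Nlrp4b, Nlrp4e, Nlrp9a and Nlrp9b), against 24.6% of all genes, and 7 of 9 had an unadjusted p under 0.05. The cKO 2-cell libraries varied more than the others, with folds between replicates of 1.16 to 2.27 over the members, compared with at most 1.32 in the other groups. With 2 libraries in each group, the smallest two-sided p of an exact permutation test is 0.333.

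Nlrp9a had the largest relative difference, with 13.3 and 24.8 FPKM in cKO against 46.4 and 47.1 in WT 2-cell embryos, a ratio of 0.408 (log2 difference -1.31, SE 0.29, limma adjusted p = 0.0194). Nlrp9c had 26.8 and 60.8 FPKM in cKO, a ratio of 0.466, and did not pass (limma adjusted p = 0.0551), with cKO replicates 2.27-fold apart. Nlrp9b had 6.92 and 9.31 FPKM, a ratio of 0.578, and passed at a smaller difference (log2 difference -0.73, SE 0.20, limma adjusted p = 0.0356). All 3 thus lay lower in cKO.

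Nlrp4a had 17.2 and 11.9 FPKM in cKO 2-cell embryos, a ratio of 0.447 (log2 difference -1.13, SE 0.26, limma adjusted p = 0.0208). Nlrp4b had 5.47 and 11.9 FPKM, a ratio of 0.449 (limma adjusted p = 0.0444). Nlrp4e had 15.7 and 19.2 FPKM, a ratio of 0.566 (limma adjusted p = 0.0380). The remaining Nlrp4 genes did not pass. Nlrp4c had 4.83 and 3.46 FPKM, a ratio of 0.573 (limma adjusted p = 0.0573), and Nlrp4f had 39.5 and 62.9 FPKM, a ratio of 0.676 (limma adjusted p = 0.146). Nlrp14 had 119 and 138 FPKM, a ratio of 0.765 (log2 difference -0.38, SE 0.21, limma adjusted p = 0.219), close to the median ratio of all genes. Its share of the sum was 47.9 and 40.3% in cKO, above the 35.5 and 33.2% in WT 2-cell embryos.

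These calls rested on the scaling and on the libraries. The median of all genes was itself shifted, at -0.30 on the log2 scale, and relative to it the members' differences ran from -1.02 to -0.09. After median-ratio scaling the all-gene median of this comparison was 0. limma then called 0 of 9 members lower (1 at an unadjusted p under 0.05), against 12.1% of all genes. The direction turned for Nlrp14 (log2 difference 0.09) and the other 8 remained below 0. Over all genes that scaling turned 3538 lower and 887 higher calls into 1747 and 1437. With quantile normalization limma called 0 of 9 (4 at an unadjusted p under 0.05), against 10.2% of all genes, and with weights by group 0 of 9 (3 unadjusted), against 5.93%. With sum scaling it called 8 of 9, against 28.2%. The fit of the 2-cell groups alone called none of the 14392 genes (3 of 9 members at an unadjusted p under 0.05) and says nothing about the members. Leaving out either cKO 2-cell library raised the limma count. That takes the most variable group out of the spread estimate that all groups share. Calls over all genes then also rose in the WT transition, which holds no cKO library. The cKO value then also rests on 1 library. What raised the count was not tested, and no result about the members is drawn from it. By fold, 0 members were more than 3-fold lower without replicate 1 (19.7% of all genes) and 3 without replicate 2 (15.2%). Leaving out a library of another group lowered the limma count, as it lowered the number of all genes called lower. In pooled embryos, fewer cells with a transcript and less of it per cell cannot be told apart.

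**Figure D5:**
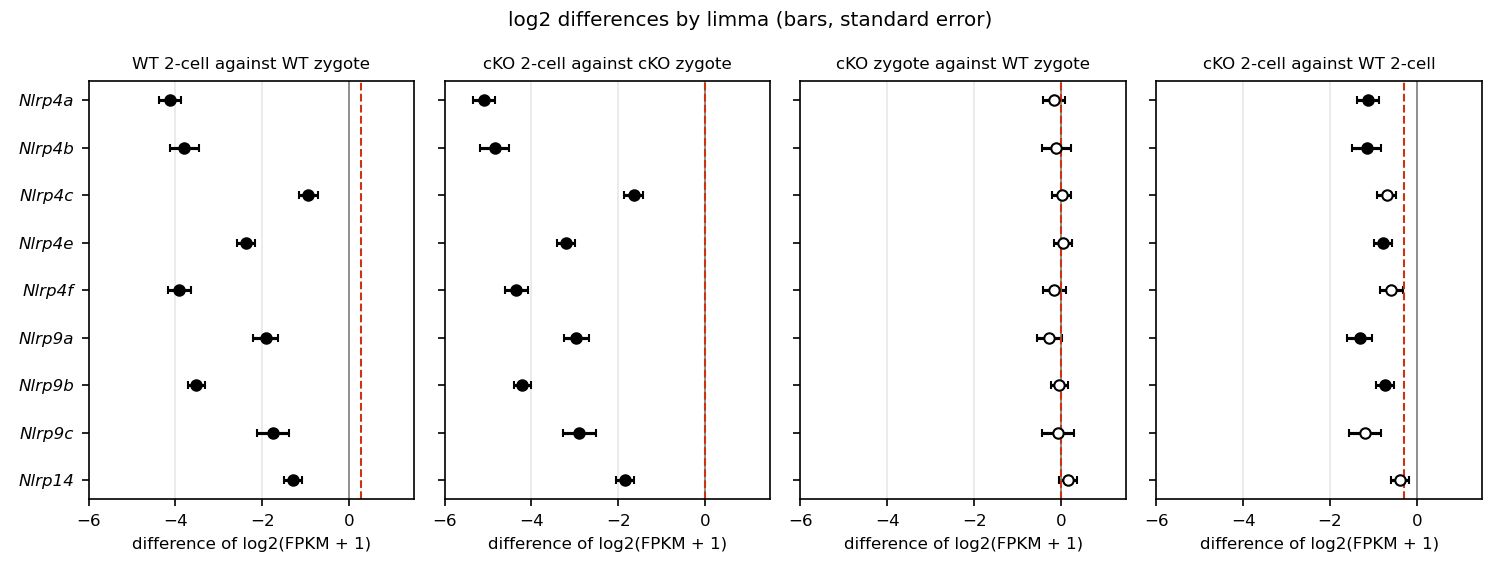
Differences of log2(FPKM + 1) for each of the 9 genes in 4 comparisons, with standard errors from limma as bars, filled points for an adjusted p under 0.05 and a dashed line at the median of all genes. All 9 points are filled in both stage comparisons, none in the zygote comparison and 5 in the 2-cell comparison, where all 9 lie below the dashed line at -0.30, although Nlrp14 lies above 0 after median-ratio scaling.

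Whether the fall from zygote to 2-cell embryo differed between genotypes was tested as an interaction in the same model. limma called 0 of 9 members (adjusted p 0.128 to 0.482), against 10.2% of all genes called with a more negative change in cKO and 1.58% with a more positive one, and 4 of 9 had an unadjusted p under 0.05. The interaction estimates were negative for all 9, from -1.13 to -0.43 on the log2 scale, except that Nlrp4f turned after median-ratio scaling and Nlrp4c after quantile normalization, and the all-gene median was -0.34. Without either cKO 2-cell library some members were called. That takes the most variable group out of the shared spread estimate and leaves a single cKO 2-cell library. What gave those calls was not tested, and no result about the members is drawn from them.

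The other oocyte members of the family gave values of the same kind. Nlrp5 had 210 and 250 FPKM in WT zygotes, 186 and 205 in cKO zygotes, 61.1 and 58.8 in WT 2-cell and 18.5 and 30.1 in cKO 2-cell embryos. It fell 3.84-fold in WT and was lower in cKO than in WT 2-cell embryos (log2 difference -1.31, SE 0.26, limma adjusted p = 0.0140). Nlrp2 had 34.5 and 28.3 FPKM in WT zygotes, 25.3 and 27.0 in cKO zygotes, 11.4 and 10.7 in WT 2-cell and 5.90 and 3.39 in cKO 2-cell embryos (limma adjusted p = 0.0241 for cKO against WT 2-cell). Over 19 alternatives the call in cKO against WT 2-cell embryos held in 14 for Nlrp5, and was lost, for example, with median-ratio scaling (adjusted p = 0.156), and in 10 for Nlrp2, lost with quantile normalization (adjusted p = 0.162). Of 7 subcortical maternal complex genes on a fixed list, which includes both, 6 were in the table. Of these 6, 5 were called lower by limma in the WT transition (median log2 difference -1.67), where 15.5% of all genes were called lower and the all-gene median was 0.27. In cKO against WT 2-cell embryos 4 were called lower (median -1.14), against 24.6% of all genes and an all-gene median of -0.30, and median-ratio scaling left 2.

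A wider list of oocyte-expressed maternal genes, none of them Nlrp genes, had 19 of 21 genes in the table. In the WT transition limma called 13 lower and 1 higher (median log2 difference -1.65), in the cKO transition 16 lower and 0 higher (median -2.78), in zygotes 0, and in cKO against WT 2-cell embryos 9 lower and 1 higher (median -0.91). The shares of all genes called lower were 15.5, 27.1 and 24.6% in the transitions and in 2-cell embryos, and with median-ratio scaling the last count was 2 lower and 0 higher. Zar1, a regulator of maternal mRNA, had 406 and 295 FPKM in WT zygotes and 59.3 and 54.7 in WT 2-cell embryos, and 24.4 and 27.5 in cKO 2-cell embryos. Bmp15, a growth factor of the oocyte, had 1883 and 1800 FPKM in WT zygotes, 531 and 536 in WT 2-cell and 79.7 and 67.5 in cKO 2-cell embryos. Zp3, which encodes a protein of the zona pellucida, had 112 and 67.5 FPKM in WT zygotes, 122 and 102 in cKO zygotes, 115 and 70.9 in WT 2-cell and 116 and 149 in cKO 2-cell embryos, where both cKO libraries lay above both WT libraries at a ratio of 1.42, with no limma call in any comparison. Gdf9, another oocyte growth factor, had 195 and 304 FPKM in WT 2-cell and 266 and 367 in cKO 2-cell embryos, with overlapping libraries.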

How the data were processed

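Reads were trimmed to 50 bases and mapped to mm9 with TopHat2 2.1.1, and the authors deposited FPKM values from Cufflinks 2.2.1, one column for each library. The further normalization and the gene annotation are not given in the sources used here. In the deposited FPKM table no value is under 1 and no gene stays at 1 in every library. Depth is unknown, and the error of each value comes from 2 libraries per group. The ratio of group means (3-fold) and limma 3.58.1 in R 4.3.3 were computed. limma was run on log2(FPKM + 1), which understates changes of low genes. All 8 libraries entered a single model with a prior that follows the mean level, leaving 4 residual degrees of freedom, and p-values were adjusted over 14392 genes by Benjamini-Hochberg at 0.05. Coding sequences were aligned with Biopython 1.88. Named were all members, Usp16, Nlrp2, Nlrp5, Zp3, Gdf9, Bmp15 and Zar1, with other lists given by counts. Members and lists were chosen with earlier results of these data known. Deviations of same-numbered libraries correlated at 0.497 in zygotes and -0.239 in 2-cell embryos. Numbers were not taken to pair libraries, since no label says that they do, and a pairing within zygotes alone was not tested. Alternatives covered the threshold, pseudocount, filter, scaling, limma settings, the replicate block and leaving out each library. Scripts were tested on simulated data. The 7 H2AK119ub1 ChIP samples were not used here.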

Additional observations from a re-analysis of the deposited data

Results flagged for a closer look

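The difference between genotypes changed with stage, by limma's interaction term, for 3 genes named in the text, none of them among the 9 members. For Usp16, the knockout target, it was 2.65 on the log2 scale (SE 0.48, limma adjusted p = 0.0251). limma called Usp16 in neither genotype comparison (adjusted p = 0.191 in zygotes and 0.263 in 2-cell embryos), and the interaction held in 10 of 18 alternatives (adjusted p 0.00531 to 0.126), being lost with sum scaling (0.0597), with weights by group (0.0522) and without any 1 library of the WT zygote, cKO zygote or WT 2-cell groups. For Bmp15 it was -3.00 (SE 0.28, limma adjusted p = 0.00640), and it held in 14 of 18 alternatives (adjusted p 0.00194 to 0.0626), being lost without any 1 zygote library. For Nlrp6, which has low levels and was named after its values were seen, it was -0.97 (SE 0.14, limma adjusted p = 0.0165). Nlrp6 was at 1, the lowest value allowed, in every library outside the WT 2-cell group. Values held at that floor show no spread, so this SE and p-value cannot be taken at face value. That call held in 11 of 17 alternatives and was lost with median-ratio scaling, quantile normalization and without any 1 zygote library. Without 1 zygote library, limma called almost no gene at all in the interaction. Losses in those fits therefore say nothing about Usp16, Bmp15 or Nlrp6.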

How the results depend on the processing

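The limma counts of 9, 9 and 0 members for the WT transition, the cKO transition and cKO against WT zygotes moved to between 7 and 9, to 9 and to 0 under 19 alternatives each. In cKO against WT 2-cell embryos, the 5 members called by limma became 0 with median-ratio scaling, quantile normalization or weights by group (12.1, 10.2 and 5.93% of all genes called lower) and 8 with sum scaling (28.2%). The count also moved when 1 library was left out, which changes the spread estimate shared by all groups. The cause was not tested. The 2 groups alone gave 0, but limma then called no gene at all. Between the same 2-cell groups, 4 members were more than 2-fold lower, against 28.6% of all genes. With sum scaling 1 was more than 3-fold lower (16.8% of all genes), and with 1 library left out 0 to 3 were (13.8 to 19.7%). For the interaction, sum scaling gave 1 member, against 13.4% of all genes, and the count also moved when 1 library was left out. With the replicate block, limma called 3 members in cKO against WT 2-cell embryos (23.3% of all genes lower) and 0 in the interaction (7.07%). The block gave 9 in each transition, where 2187 (WT) and 3866 (cKO) of 14392 genes were called lower. In zygotes it gave 0 members, with 0 genes lower and 1 higher. Libraries sharing a number were not known to be paired. With the block crossed in the cKO 2-cell libraries, an alternative chosen after seeing the data, the 2-cell count was 5 (24.6% of all genes).

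Single differences that turned were mostly near 0. In zygotes, Nlrp4c went to -0.0080 with median-ratio scaling, -0.011 with sum scaling and -0.048 with quantile normalization, and with 1 library left out Nlrp4a ran from -0.35 to 0.030, Nlrp4e from -0.052 to 0.14, Nlrp9b from -0.094 to 0.018 and Nlrp9c from -0.18 to 0.051. In 2-cell embryos, Nlrp14 went to 0.094 with median-ratio scaling. In the interaction, Nlrp4c went to 0.038 with quantile normalization and Nlrp4f to 0.064 with median-ratio scaling. Without read counts, no depth limit can be set for any value.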

Other observations

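The members of the NLR superfamily that are known from immune and epithelial cells were mostly at low levels in these embryos. The highest values among those on the list below were those of Nlrc4 in zygotes and of Nlrp1a in 2-cell embryos. Of 18 on a fixed list, 12 were in the table, and in WT zygotes 9 of the 12 were at the lowest allowed value in both libraries, compared with 1 of 12 in WT 2-cell embryos and 4 of 12 in cKO 2-cell embryos. Over all 14392 genes, 4423 and 4747 were at that value in the WT zygote libraries. The numbers were 1642 and 1716 in the WT 2-cell libraries and 3684 and 4240 in the cKO 2-cell libraries. In the WT transition limma called 1 of the 12 lower, against 15.5% of all genes, and 5 higher, against 4921 of 14392 genes. The median log2 difference of the 12 was 0.27, equal to that of all genes. In cKO against WT 2-cell embryos limma called 3 lower and 0 higher, against 24.6% of all genes lower and 887 of 14392 higher. Summed levels of the 12 were 24.2 to 32.5 FPKM in zygotes, 33.2 to 41.7 in WT 2-cell and 25.1 to 32.5 in cKO 2-cell embryos. The genes named next were chosen after their values were seen. Nlrc4, an NLR that forms an inflammasome, had 10.98 and 12.7 FPKM in WT zygotes, 14.4 and 10.1 in cKO zygotes, 3.18 and 3.62 in WT 2-cell and 1.47 and 2.16 in cKO 2-cell embryos. Nlrp1a, an inflammasome sensor, was listed at 1 in all 4 zygote libraries and had 9.56 and 6.54 FPKM in WT 2-cell and 6.05 and 12.3 in cKO 2-cell embryos. Nlrp12 was at 1 in the zygotes and had 3.85 and 3.62 FPKM in WT 2-cell and 4.13 and 1.92 in cKO 2-cell embryos. Nlrp6, known from the gut epithelium, had 2.57 and 3.31 FPKM in WT 2-cell embryos and was at 1 in every other library. Nlrp3, the best studied inflammasome sensor, reached at most 2.03 FPKM in any library.

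Of 6 inflammasome partners on a fixed list, 2 were in the table. Both were at 1 in all 4 zygote libraries. Gsdmd, which encodes the pore-forming gasdermin D, had 3.21 and 3.03 FPKM in WT 2-cell embryos and was at 1 in cKO 2-cell embryos, and Il18 exceeded 1 in a single cKO 2-cell library, at 1.65 FPKM. Levels this close to the floor rest on few fragments, and depth is unknown.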
